A study of Homo sapiens with 8 samples.

Results

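The carcinoembryonic antigen-related cell adhesion molecules (CEACAMs) were examined in MIV-Luc breast cancer cells with and without IL13Rα2 and IL-13. The 8 family members CEACAM1, CEACAM3, CEACAM4, CEACAM5, CEACAM6, CEACAM7, CEACAM8 and CEACAM19 were taken by their gene symbols from the 20219 distinct symbols on the array, and each had 1 of the 29141 tested features. The family was selected on these data, because CEACAM6 was called lower with IL-13 in control cells and CEACAM5 was called higher upon knockdown without IL-13. The values of every member in those comparisons are therefore given as a description, without a test. MIV-Luc cells are MCF10CA1a cells with a luciferase reporter, a basal-like human line at the metastatic end of the MCF10A series. All cells carried a lentiviral pLKO hairpin vector, either a scrambled hairpin (shSCR) or hairpin #2 against the decoy IL-13 receptor IL13Rα2 (shIL13Rα2#2). The 4 groups were shSCR cells and shIL13Rα2#2 cells, each either mock-treated (- IL-13) or kept for 16 h with IL-13 at 20 ng/ml (+ IL-13). Each group had 2 biological replicates, hybridized to 8 Affymetrix arrays in all, and the arrays of a group are called A and B in the order of their columns. A single hairpin stands for the knockdown, so an effect of this hairpin and an effect of losing the receptor cannot be told apart.

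CEACAMs are cell surface glycoproteins of the immunoglobulin superfamily that bind one another between neighbouring cells. CEACAM5 (the carcinoembryonic antigen, CEA), CEACAM6, CEACAM7 and CEACAM8 are held in the membrane by a glycosylphosphatidylinositol (GPI) lipid anchor, whereas CEACAM1, CEACAM3, CEACAM4 and CEACAM19 cross the membrane and have a cytoplasmic tail. CEACAM5 and CEACAM6 are abundant in many carcinomas and are known for blocking anoikis and epithelial differentiation. CEACAM1 carries inhibitory motifs that recruit the phosphatases SHP-1 and SHP-2, and CEACAM3, CEACAM4 and CEACAM8 are best known from granulocytes. IL-13 signals through a receptor made of IL4Rα and IL13Rα1 to the transcription factor STAT6, while IL13Rα2 binds IL-13 with high affinity and is regarded mainly as a decoy.

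All 8 genes lie on human chromosome 19. In the order of protein-coding genes in RefSeq (GRCh38.p14), CEACAM4, CEACAM7, CEACAM5, CEACAM6 and CEACAM3 follow one another without another gene between them. CEACAM1 and CEACAM8 are neighbours elsewhere on the chromosome, and CEACAM19 lies between PVR and CEACAM16. Of the 8 members, 7 had a promoter window in the RefSeq sequences used here. The 250 bases before the start of transcription are shown for the 3 members whose levels moved most. They are written 5′ to 3′ on the strand of the gene. CEACAM5 and CEACAM6 are neighbours with related sequence. Their groups were ordered differently, though both genes were lower with IL-13 and higher upon knockdown in each single comparison. The windows are chr19:41708376-41708625 on the + strand for CEACAM5, chr19:41755280-41755529 on the + strand for CEACAM6 and chr19:42528482-42528731 on the - strand for CEACAM1. Capitals mark matches to the motifs searched.
CEACAM5: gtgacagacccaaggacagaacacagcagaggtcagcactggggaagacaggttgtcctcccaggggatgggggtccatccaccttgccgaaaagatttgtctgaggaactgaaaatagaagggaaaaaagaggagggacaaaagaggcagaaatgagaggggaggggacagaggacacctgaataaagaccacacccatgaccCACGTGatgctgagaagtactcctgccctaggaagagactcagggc
CEACAM6: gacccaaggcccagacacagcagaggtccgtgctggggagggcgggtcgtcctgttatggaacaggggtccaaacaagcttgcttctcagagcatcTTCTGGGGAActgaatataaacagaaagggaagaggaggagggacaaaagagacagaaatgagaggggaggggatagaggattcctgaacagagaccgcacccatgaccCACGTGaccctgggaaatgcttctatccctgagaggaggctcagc
CEACAM1: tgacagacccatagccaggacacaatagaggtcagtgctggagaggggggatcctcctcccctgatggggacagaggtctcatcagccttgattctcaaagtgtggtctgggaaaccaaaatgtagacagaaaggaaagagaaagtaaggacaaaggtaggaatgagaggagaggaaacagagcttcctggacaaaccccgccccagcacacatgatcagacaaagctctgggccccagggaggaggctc
The motifs were the STAT palindromes of TTC and GAA with 3 or 4 free bases between them, the latter being the spacing that STAT6 is known to prefer, and the E-box CACGTG, which was added after the sequences had been seen. All were searched on both strands, and none overlapped another here. The spacing of 4 matched in CEACAM6 as TTCTGGGGAA, with its first base at -154 from the start, and in none of the other 6 windows, against 5.38% of all 35116 RefSeq windows of this length. The spacing of 3, present in 6.57% of all windows, matched in none of the 7. CACGTG, present in 6.34% of all windows, matched in CEACAM5 with its first base at -46 and in CEACAM6 at -45. Over an end-to-end alignment the CEACAM5 and CEACAM6 windows were 73.6% identical. CEACAM5 and CEACAM7 were the closest pair of the 7 windows at 80.5%, and CEACAM3 and CEACAM8 the most distant at 54.6%. These matches are descriptions of sequence, and binding was not measured.

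The deposited values were log2 expression values from the RMA method, with array medians of 5.02 to 5.06 and Pearson's r over features of 0.992 to 0.993 within groups and 0.988 to 0.993 between groups, so that the ranges overlapped. Of the table's 33297 features, 4156 were controls or spike-ins and did not enter the tests. The knockdown was checked on IL13RA2, whose log2 level was 8.07 and 8.09 in mock-treated shSCR cells and 6.52 and 6.34 in mock-treated shIL13Rα2#2 cells. With IL-13 it was 9.36 and 9.33 in shSCR cells and 8.23 and 8.15 in shIL13Rα2#2 cells, so the receptor's level in treated knockdown cells lay just above that of untreated controls. All 8 genes listed for basal mammary epithelium were measured, with mean log2 levels of 6.67 to 12.0. The upper end was the epithelial adhesion gene EPCAM at 12.0, while KRT5, the highest keratin of that list, was at 9.73. The 6 luminal markers ranged from 4.25 to 10.1, with KRT8 at 10.1, KRT18 at 9.12, GATA3 at 8.002 and FOXA1 at 7.31, while the estrogen receptor gene ESR1 was at 4.25. The luminal markers did not move together. KRT18, a keratin of luminal cells, differed by -0.64 upon knockdown without IL-13 (adjusted p = 0.217 in limma). Among treated cells it differed by -0.56 (adjusted p = 0.349 in limma). In the same comparisons KRT8 differed by -0.30 and -0.23, while GATA3 differed by 0.22 and 0.38 and KRT19 by 0.03 and 0.26. ESR1 (0.19 and -0.13) and FOXA1 (-0.20 and 0.05) changed sign between them. The part of these markers in the knockdown comparisons was not tested. The 7 measured granulocyte markers had mean levels of 2.47 to 6.19 and the 6 colon markers 2.85 to 5.47, against a median of 5.03 over all tested features. Of the granulocyte markers, ELANE was at 6.19, AZU1 at 5.41 and CD177 at 5.39, above that median. The others lay below it, with MPO at 4.16, CSF3R at 3.74 and S100A12 at 3.25. The lowest was PTPRC, the pan-leukocyte marker CD45, at 2.47. The array's negative control features had a median of 4.19 but a 95th percentile of 9.60, so they gave no clean floor. Because probes differ in brightness, the level of one gene is not compared with that of another as an amount of RNA. In bulk RNA, fewer expressing cells and less RNA per cell cannot be told apart.

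Among the GPI-anchored members, CEACAM5 spanned the widest range. Its log2 level was 8.01 and 7.50 in mock-treated shSCR cells, 7.09 and 7.16 in shSCR cells with IL-13, 9.26 and 9.42 in mock-treated knockdown cells and 8.49 and 8.28 in knockdown cells with IL-13. The order of the groups was thus mock-treated knockdown, treated knockdown, mock-treated shSCR and treated shSCR, and no array of one group reached into the next. The 4 group means, 9.34 ± 0.12, 8.39 ± 0.15, 7.75 ± 0.36 and 7.13 ± 0.05 (SD, n = 2 each), spanned 2.22 on the log2 scale. The mock-treated shSCR pair lay farther apart than any other pair for this gene. The mean level of CEACAM5 was above that of 88.4% of tested features.

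CEACAM6 was ordered differently. Its log2 level was 6.997 and 6.911 in mock-treated shSCR cells, 5.91 and 5.93 with IL-13, 7.32 and 7.58 in mock-treated knockdown cells and 6.19 and 6.29 in knockdown cells with IL-13. Both mock-treated groups lay above both IL-13 groups, and within each treatment the knockdown group lay above the shSCR group. The group means were 7.45 ± 0.18 in mock-treated knockdown cells, 6.95 ± 0.06 in mock-treated shSCR cells, 6.24 ± 0.07 in treated knockdown cells and 5.92 ± 0.0095 in treated shSCR cells (SD, n = 2 each). No neighbouring groups in that order overlapped, and the means spanned 1.53. So CEACAM5 was ordered first by the hairpin and CEACAM6 first by IL-13. Over the 8 arrays the Pearson's r of CEACAM5 and CEACAM6 was 0.75, the highest of any pair of members.

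CEACAM1, the transmembrane member with inhibitory motifs, ran the other way under knockdown. Its log2 level was 9.44 and 9.27 in mock-treated shSCR cells, 9.29 and 9.12 with IL-13, 8.86 and 8.81 in mock-treated knockdown cells and 8.53 and 8.38 in knockdown cells with IL-13. All 4 knockdown arrays lay below all 4 shSCR arrays. The shSCR groups overlapped, with means of 9.35 ± 0.12 and 9.21 ± 0.12, while the knockdown means were 8.84 ± 0.03 and 8.45 ± 0.11 (SD, n = 2 each). The means spanned 0.90 on the log2 scale.

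The other members moved little. CEACAM7, the other GPI-anchored member known from colon epithelium, lay between 3.19 and 3.65 on all 8 arrays and was the only member among the dimmest 30% of features. CEACAM8, the GPI-anchored granulocyte antigen CD66b, lay between 4.13 and 4.50. CEACAM3, the granulocyte receptor for CEACAM-binding bacteria, lay between 5.40 and 6.21, and CEACAM4, its granulocyte relative, between 5.47 and 6.04. The mean level was above that of 34.7% of tested features for CEACAM8, 65.5% for CEACAM3 and 65.7% for CEACAM4. CEACAM19, a little-studied transmembrane member, was 5.26 and 5.14 in mock-treated shSCR cells, 5.34 and 5.44 with IL-13, 5.35 and 5.31 in mock-treated knockdown cells and 5.73 and 5.53 in knockdown cells with IL-13. Only the last pair stood above all other arrays of that gene.

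**Figure D1:**
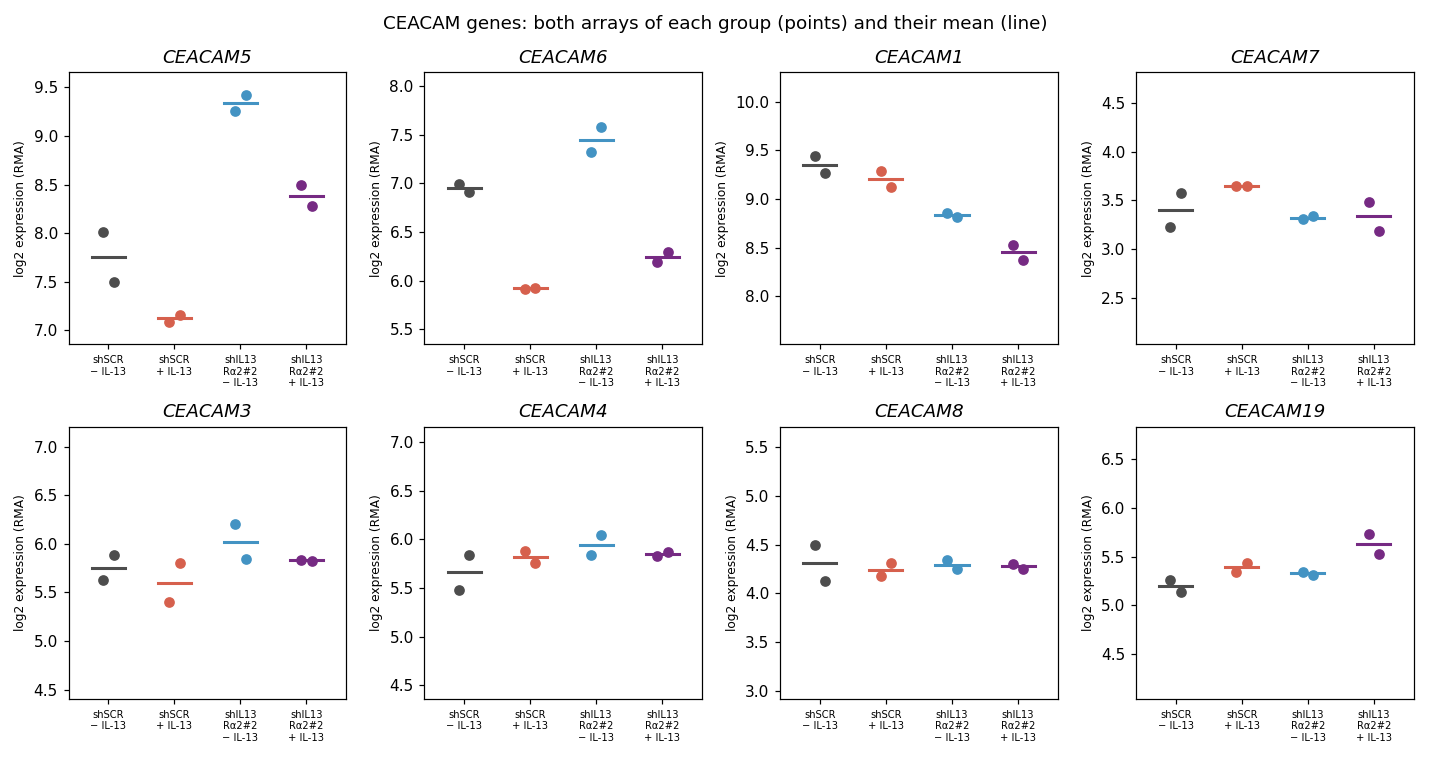
Log2 expression (RMA, y axis) of the 8 CEACAM genes in the 4 groups (x axis), with a point per array and a line at the mean of the 2 arrays. Every panel spans the same number of log2 units. CEACAM5 and CEACAM6 are highest in mock-treated knockdown cells (means 9.34 and 7.45). CEACAM6 is lower with IL-13 in both cell lines, and CEACAM1 is lower in all 4 knockdown arrays.

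The first comparison asked what IL-13 does in cells that keep the receptor, and CEACAM6 was chosen by it. CEACAM6 was 2.05-fold lower in shSCR cells with IL-13 (log2 difference -1.04, 95% interval -1.32 to -0.75), just past the fold change of 2 that a call needed together with an adjusted p under 0.05 in limma. The nearest member outside that threshold was CEACAM5, 1.55-fold lower (-0.63, -1.03 to -0.22). The CEACAM5 value depended on the mock-treated shSCR pair, and was -0.38 without array A and -0.88 without array B. CEACAM1 differed by -0.15, CEACAM3 by -0.15, CEACAM8 by -0.07, CEACAM4 by 0.16, CEACAM19 by 0.19 and CEACAM7 by 0.25. Thus 1 of 8 members was called, against 0.0583% of all features, a count that the choice of the family fixed. The groups were apart, every array of one above every array of the other, for 4 members, CEACAM5 and CEACAM6 lower and CEACAM7 and CEACAM19 higher, against 36.7% of all features. The median difference of the members was -0.11, against 0.0019 over all features.

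The same treatment in knockdown cells takes its difference from arrays that did not enter the choice of CEACAM6. The spread in limma was pooled over all 8 arrays, among them the shSCR arrays that chose CEACAM6. Its SD was 0.06 and 0.0095 in the mock-treated and treated shSCR groups, and 0.18 and 0.07 in the knockdown groups. The adjusted p is therefore not independent of that choice. In knockdown cells CEACAM6 fell again, by 1.20 on the log2 scale (SE 0.12, 95% interval -1.48 to -0.92), which is 2.30-fold, with a limma adjusted p of 0.0254. It was the 11th feature by p-value. It was the only called member of the 8, against 0.0618% of all features. The call rested on every array of the series: leaving out any 1 of the 8 arrays, which also takes away 1 of 4 residual degrees of freedom, raised the adjusted p to between 0.0662 and 0.229, while the difference stayed between -1.33 and -1.07. Of the 2 mock-treated knockdown arrays, B was the higher (7.58 against 7.32), and without it the difference was -1.07 with an adjusted p of 0.198. The call was also lost with limma on the 4 arrays compared alone, where the shSCR arrays do not enter the spread (adjusted p = 0.190). It was lost as well with the analysis of variance that the study's methods name, after adjustment (adjusted p = 0.756). CEACAM5 also was lower with IL-13 in knockdown cells, by 1.94-fold (-0.96, -1.36 to -0.55), given without a test because its mock-treated knockdown arrays were used to choose it.

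The remaining members did not pass the test for IL-13 in knockdown cells. CEACAM1 differed by -0.39 (-0.66 to -0.11, adjusted p = 0.592 in limma), and CEACAM19 by 0.30 (0.03 to 0.57, adjusted p = 0.692). CEACAM3 differed by -0.19, CEACAM4 by -0.09, CEACAM8 by -0.02 and CEACAM7 by 0.01, with adjusted p of 0.876 to 0.994 in limma. The groups were apart for 5 members, CEACAM1, CEACAM3, CEACAM5 and CEACAM6 lower and CEACAM19 higher, against 37.4% of all features. The members' median difference was -0.14, against 0.016 over all features. The comparison of IL-13 in shSCR cells and that in knockdown cells take their differences from separate arrays, and CEACAM6 was lower in both. Its direction in shSCR cells was fixed by the choice, so only the difference in knockdown cells is separate from it.

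The knockdown without IL-13 was the comparison that chose CEACAM5, the antigen for which the family is named. CEACAM5 was 3.01-fold higher in mock-treated shIL13Rα2#2 cells than in mock-treated shSCR cells (log2 difference 1.59, 95% interval 1.18 to 1.99). The nearest members by size were CEACAM1, lower by 1.43-fold (-0.52, -0.80 to -0.24), and CEACAM6, higher by 1.41-fold (0.49, 0.21 to 0.77). CEACAM4 differed by 0.28, CEACAM3 by 0.27, CEACAM19 by 0.13, CEACAM8 by -0.02 and CEACAM7 by -0.08. CEACAM5 was the 1 called member, against 0.0652% of all features, again fixed by the choice. Groups were apart for 4 members, with CEACAM5, CEACAM6 and CEACAM19 higher and CEACAM1 lower, against 41.2% of all features. The median difference was 0.20, against -0.014 over all features.

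Among IL-13-treated cells the knockdown took its difference from arrays that had not been used to choose CEACAM5. The spread in limma was again pooled over all 8 arrays, among them the mock-treated arrays that chose CEACAM5. The SD of CEACAM5 was 0.36 and 0.12 in the mock-treated shSCR and knockdown groups. In the treated shSCR and knockdown groups it was 0.05 and 0.15. The adjusted p of CEACAM5 is therefore not independent of that choice. CEACAM5 was again higher in knockdown cells, by 2.40-fold (log2 difference 1.26, SE 0.18, 95% interval 0.86 to 1.67), and CEACAM1 again lower, by 1.69-fold (-0.75, SE 0.12, -1.03 to -0.48). Neither passed the test, with limma adjusted p of 0.120 for CEACAM5 and 0.155 for CEACAM1. CEACAM5 was the 24th feature by p-value, while 15 features were called. The call for CEACAM5 was gained once limma's prior was made robust and let vary with signal (adjusted p = 0.00453) and in no fit that left out an array (0.0780 to 0.584, differences of 1.15 to 1.37). IL13RA2 itself rose with IL-13 in shSCR cells, by 1.27 on the log2 scale (adjusted p = 0.0135 in limma). Among treated cells it was lower in knockdown cells, with a log2 difference of -1.16 (adjusted p = 0.0241 in limma).

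CEACAM6 differed by 0.32 between treated knockdown and treated shSCR cells (0.04 to 0.61), given without a test because the treated shSCR arrays chose it. CEACAM7 differed by -0.31, CEACAM19 by 0.24, CEACAM3 by 0.23, CEACAM4 by 0.03 and CEACAM8 by 0.03, with adjusted p of 0.741 to 0.987 in limma. Of the 8 members 0 were called, against 0.0515% of all features. Groups were apart for 6 members, CEACAM3, CEACAM5, CEACAM6 and CEACAM19 higher and CEACAM1 and CEACAM7 lower, against 36.4% of all features. The median of the members was 0.13, against 0.0019 over all features.

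**Figure D2:**
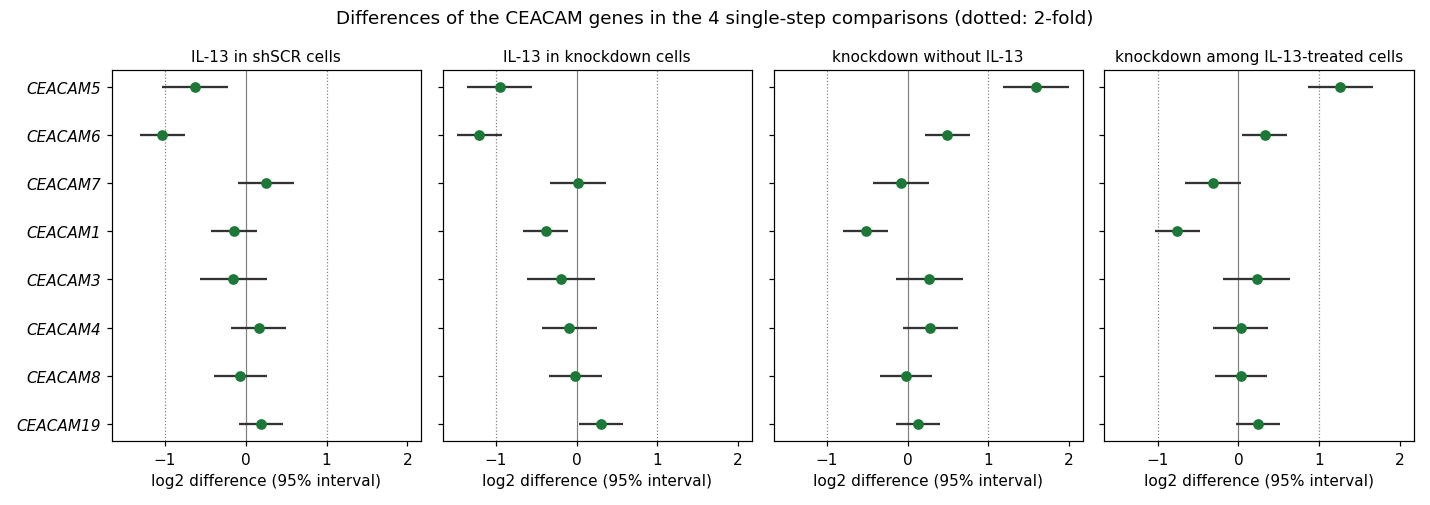
Log2 differences (x axis) of the 8 CEACAM genes in 4 comparisons, with 95% intervals from limma over 8 arrays as bars and a fold change of 2 as dotted lines. CEACAM5 lies at 1.59 and 1.26 for the knockdown, CEACAM6 at -1.04 and -1.20 for IL-13, and the other members lie within a fold change of 2 in every panel.

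Knockdown and IL-13 together were set against mock-treated shSCR cells, which the study also compared. It shares the mock-treated shSCR arrays with both comparisons that chose the family, so its values carry no test. CEACAM5 was higher by 0.63 on the log2 scale (0.23 to 1.04) and CEACAM6 lower by 1.64-fold (-0.71, -0.99 to -0.43). CEACAM1 was lower by 1.87-fold (-0.90, -1.18 to -0.62), the widest difference of the 8 members, and CEACAM19 was higher by 0.43 (0.16 to 0.70). The CEACAM5 difference was 0.89 without mock-treated shSCR array A and 0.38 without array B. The neighbours CEACAM5 and CEACAM6, both lower with IL-13 and higher upon knockdown in the single comparisons, thus had differences of opposite sign here. No member was called, 0 of 8 against 0.154% of all features. CEACAM1 was the member nearest to a fold change of 2. Groups were apart for 4 members, CEACAM5 and CEACAM19 higher and CEACAM1 and CEACAM6 lower, against 40.3% of all features. The median of the members was 0.017, against 0.0062 over all features.

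Whether IL-13 acted differently in the knockdown cells was addressed by the interaction, the log2 difference with IL-13 in knockdown cells minus that in shSCR cells. It was -0.33 for CEACAM5 (95% interval -0.90 to 0.25), -0.17 for CEACAM6 (-0.57 to 0.23) and -0.24 for CEACAM1 (-0.63 to 0.16). For CEACAM19 it was 0.11 (-0.27 to 0.50). It uses the arrays that chose CEACAM5 and CEACAM6, so these values carry no test. Over all features, limma called 0 for the interaction. An unadjusted limma p under 0.05 was reached by 1304 of the 29141 features, a share below 0.05.

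Genes around the family were examined from lists written from general knowledge. Of the other CEACAM genes, CEACAM16, CEACAM20 and CEACAM21 were measured, with mean levels of 3.79 to 5.30 and differences of -0.40 to 0.06 for IL-13 in knockdown cells and -0.11 to 0.05 for the knockdown among treated cells. CEACAM21, the gene next to CEACAM4, differed by 0.46 upon knockdown without IL-13 (adjusted p = 0.382 in limma). The 10 pregnancy-specific glycoproteins, the secreted branch of the same gene family, ranged from -0.40 to 0.23 and from -0.58 to 0.33 in these 2 comparisons. The 10 genes listed for GPI anchors, which hold CEACAM5 and CEACAM6 in the membrane, ranged from -0.16 to 0.35 and from -0.19 to 0.30. The 10 signalling partners, among them the SRC-family kinases and the phosphatases SHP-1 and SHP-2, ranged from -0.22 to 0.25 and from -0.18 to 0.52. The 24 other adhesion genes of the immunoglobulin superfamily, such as the ICAM and nectin genes, ranged from -0.34 to 0.18 and from -0.29 to 0.20. In none of these 5 lists, nor in the 4 lists of cell type markers, did a gene pass the limma test in any of the 5 comparisons of groups, and 0 differed by more than 1 on the log2 scale.

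**Figure D3:**
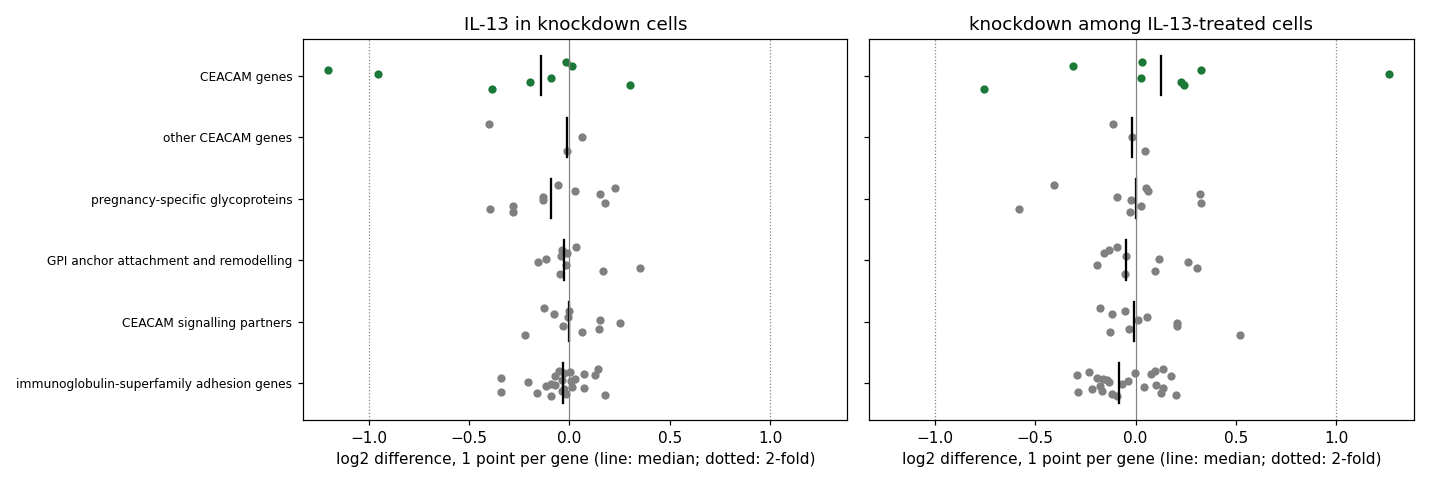
Log2 differences (x axis) of the CEACAM genes and of 5 related lists, with a point per gene, a line at the median of each list and a fold change of 2 as dotted lines. Only the CEACAM row holds genes beyond 1 in size, CEACAM6 at -1.20 for IL-13 in knockdown cells and CEACAM5 at 1.26 for the knockdown among treated cells. The family was chosen on these data for CEACAM5 and CEACAM6, so this contrast with the lists carries no test.

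Candidates for likeness were features outside the family with an intact gene symbol, whose group means spanned more than 1 on the log2 scale, 138 in all. Among them were sought the genes most like CEACAM5 and CEACAM6 in their pattern over the 8 arrays. For CEACAM5 these were CASP14, a caspase of keratinocyte differentiation, with r = 0.993, CLCA2, a chloride channel regulator, with 0.974, HPGD, which degrades prostaglandins, with 0.973, the zinc finger gene ZNF117 with 0.971, and the adhesion receptor LPHN3 with 0.967. CASP14 followed the order of the CEACAM5 groups over a wider range, with log2 levels of 6.41 and 5.94 in mock-treated shSCR cells, 4.59 and 4.88 with IL-13, 8.67 and 8.84 in mock-treated knockdown cells and 7.17 and 6.96 in knockdown cells with IL-13. For CEACAM6 they were AGR2, a disulfide isomerase of secretory cells, with r = 0.978, the transmembrane protein gene SLITRK6 with 0.969, TMEM45A with 0.952, the secreted hormone gene STC1 with 0.951, and CP, the copper-carrying ferroxidase ceruloplasmin, with 0.949. AGR2 was at 7.09 and 7.33, 6.01 and 5.93, 7.79 and 7.70, and 6.46 and 6.34 in the same order of groups, so that, like CEACAM6, it was lower on all IL-13 arrays than on all mock-treated arrays. The 2 sets shared no gene. CEACAM1 spanned less than 1 and was not searched. These r are descriptions over 8 arrays that form 4 groups and were picked as the highest of many.

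**Figure D4:**
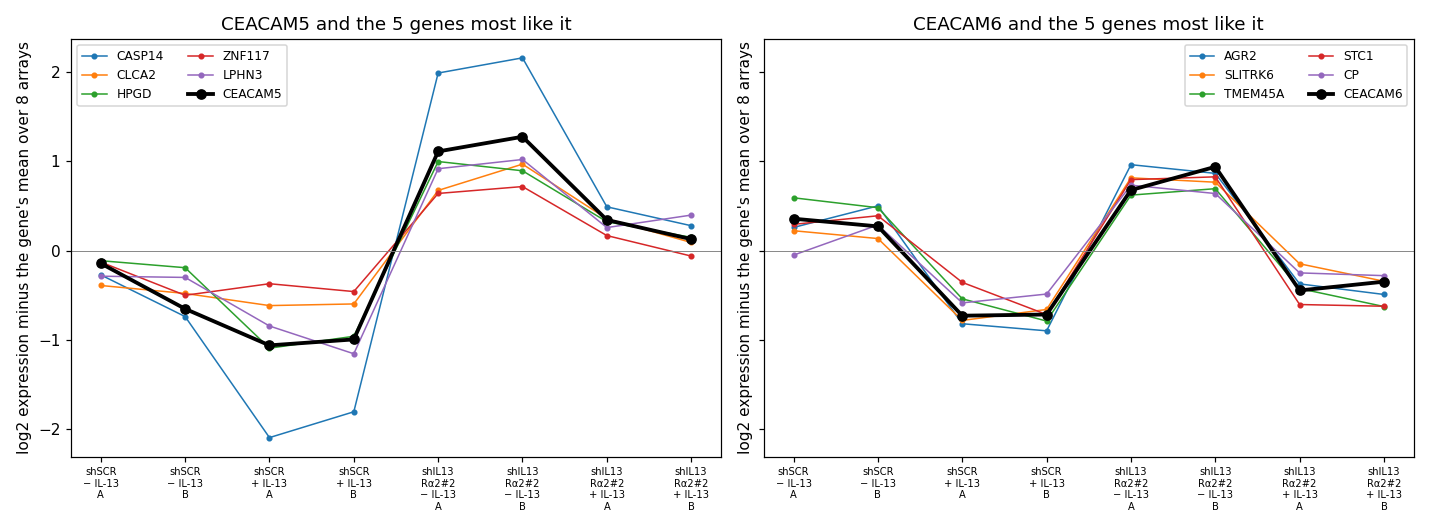
Log2 expression minus each gene's mean over the 8 arrays (y axis) on each array (x axis), for CEACAM5 and CEACAM6 (black) and the 5 genes most like each. The lines join arrays for reading only. By group mean, every gene of both sets is highest in mock-treated knockdown cells. Every gene of the CEACAM6 set also lies below its own mean on all 4 IL-13 arrays.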

How the data were processed

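Total RNA of 8 samples was hybridized to Affymetrix arrays. The authors deposited log2 expression values, made with RMA in Affymetrix Expression Console version 1 (background correction, quantile normalization of the arrays together, 1 summary per gene). The genome build was not given in the sources used here. Columns were assigned to groups by construct and treatment. No further normalization was applied, no signal filter was used, and no column of values was left out. For arrays, their number limits the precision.

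The 4 group means were fitted over all 8 arrays in R 4.3.3 with limma 3.58.1 (4 residual and 3.86 prior degrees of freedom), and p-values were Benjamini-Hochberg adjusted over all 29141 features. A feature was called at an adjusted p under 0.05 and a fold change above 2, or at the adjusted p alone for the interaction. Groups were said to be apart where every array of one lay above every array of the other. The procedure was tested on simulated data.

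The members and lists were chosen with earlier results of these data known. Named were all 8 members, IL13RA2, list genes with an adjusted p under 0.05 or a log2 difference above 1 in size (there were 0), and the 5 genes with the highest Pearson r for each member spanning more than 1. CEACAM21, the named granulocyte markers, the luminal markers, and the arrays of CASP14 and AGR2 were added after their values were seen. For list genes with several features, the feature with the highest mean was used. All 8 members matched RefSeq genes. Each member's feature is marked in the file as free of cross-hybridisation. Whether related members share probe signal was not tested.

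Results were recomputed with the methods' test (analysis of variance, run over the 4 arrays of each comparison, with and without adjustment), with limma fitted to those arrays alone, with limma's unadjusted p, with a fold threshold of 1.5 or none, with a robust prior that varied with signal, without the dimmest 30% of features, after equalising the array medians, after another quantile normalization, and without each array in turn.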

Additional observations from a re-analysis of the deposited data

How the results depend on the processing

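In 3 comparisons 1 member was called (IL-13 in each cell line, and the knockdown without IL-13), and this count went to 0 with the methods' test after Benjamini-Hochberg adjustment and with limma on the 4 arrays compared. For IL-13 in shSCR cells it also went to 0 once the array medians were equalised. For the knockdown among treated cells the count rose from 0 to 1 (CEACAM5) with the methods' test without adjustment, with limma without adjustment and with a robust prior that varied with signal. For knockdown plus IL-13 against mock-treated shSCR cells it rose from 0 to 1 (CEACAM1) with a fold change above 1.5 and with no fold threshold. As that comparison shares arrays that chose the family, its count is a description. Leaving out each array in turn gave 0 to 0 called members in all 5 comparisons and in the interaction.

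Over the settings other than leaving out arrays, the difference of CEACAM6 with IL-13 in knockdown cells stayed between -1.22 and -1.20, with limma adjusted p and adjusted p of the methods' test between 0.000912 and 0.756. That of CEACAM1 for the knockdown among treated cells stayed between -0.76 and -0.75 (0.00327 to 0.813), and without 1 array between -0.84 and -0.67 (0.241 to 0.626). Differences of CEACAM3, CEACAM4, CEACAM7 and CEACAM8 turned their sign under some settings. That of CEACAM7 with IL-13 in knockdown cells was 0.013 and became -0.011 with a further quantile normalization. Without 1 array, differences with IL-13 in knockdown cells ranged from -0.13 to 0.16 for CEACAM7, from -0.067 to 0.030 for CEACAM8 and from -0.20 to 0.011 for CEACAM4. Those for the knockdown among treated cells ranged from -0.029 to 0.088 for CEACAM4 and from -0.032 to 0.095 for CEACAM8. With IL-13 in shSCR cells they ranged from -0.35 to 0.045 for CEACAM3, from -0.026 to 0.34 for CEACAM4 and from -0.25 to 0.12 for CEACAM8. For the knockdown without IL-13 they ranged from -0.25 to 0.096 for CEACAM7 and from -0.20 to 0.17 for CEACAM8. In knockdown plus IL-13 against mock-treated shSCR cells they ranged from -0.055 to 0.20 for CEACAM3, from -0.24 to 0.11 for CEACAM7 and from -0.22 to 0.15 for CEACAM8, and in the interaction from -0.24 to 0.16 for CEACAM3 and from -0.13 to 0.24 for CEACAM8. The interaction of CEACAM5 ranged from -0.58 to -0.072. CEACAM7 was not tested when the dimmest features were left out. The cause of these changes was not tested. No paired analysis was possible because the columns carry running numbers and not the replicate numbers of the labels.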
